A study of Oryza sativa with 18 samples.

Results

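Of 5908 rice regions whose DNA methylation the authors reported as different between dry seed and 24 h of germination, 666 (11.3%) were methylated in the dry seed embryo and nearly empty of methylation at 24 h with and without oxygen. They were picked from measured values: a mean level of at least 50% in dry seed, and under 10% both at 24 h in air and at 24 h in nitrogen, counting libraries with 10 or more reads over a region. The dry seed and 24 h levels below therefore describe the choice and carry no test. The 3 groups of coleoptiles were not used by the rule, and the libraries that the table itself lists as high or low in a region are all from dry seed or 24 h.

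The study measured cytosine methylation by whole-genome bisulfite sequencing (MethylC-seq) in wild-type rice of the cultivar Amaroo, in 18 libraries, 3 per group. Dry seed (0 h) embryos were frozen straight from de-hulled grain. Embryos were also collected after 24 h in medium bubbled with air or with nitrogen gas, and coleoptiles, the sheaths that cover the first leaf, after 4 d in air, after 4 d in nitrogen, or after 3 d in nitrogen with a further day in air (re-aeration). All grown samples shared de-hulled and surface-sterilised grain, a MES-buffered culture medium, darkness and 30 °C. The primary leaf was removed from air-grown coleoptiles, so the coleoptile groups differ in dissection as well as in oxygen, and the part of that difference in any result was not tested. Each library is a bulk sample, in which fewer methylated cells and less methylation per cell cannot be told apart. No label ties a replicate to a separate batch of plants, so p-values measure the spread between libraries, which may be technical.

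Methylated cytosine in plants sits in CG, CHG and CHH contexts, where H stands for any base but G. CG methylation is copied after replication by a maintenance methyltransferase, whereas CHH methylation is mostly set anew each cell cycle by RNA-directed DNA methylation and by chromomethylases. Methylation is lost passively when replicated DNA is not re-methylated, or actively when DNA glycosylases of the DEMETER family cut out the methylated base. The deposited names of the tables and of their columns carry different contexts (CNN and CG), and which of them was counted is not known here.

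Across the 666 regions, dry seed and re-aerated coleoptiles were highly methylated and the other 4 groups were nearly empty. The mean level over the regions was 69.0%, 63.8% and 66.6% in the dry seed libraries (66.5% ± 2.57, SD, n = 3). It was 3.31%, 4.19% and 3.62% at 24 h in air (3.70% ± 0.449) and 4.24%, 4.18% and 4.04% at 24 h in nitrogen (4.15% ± 0.102). The low 24 h values follow from the rule.

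The coleoptile libraries fell on both sides. The mean was 3.18%, 3.33% and 3.55% after 4 d in air (3.35% ± 0.186, n = 3) and 4.47%, 4.63% and 4.65% after 4 d in nitrogen (4.58% ± 0.0960). It was 58.4%, 58.5% and 60.5% after re-aeration (59.1% ± 1.19). The 3 nitrogen libraries were all above the 3 air libraries, by about 1 point, and the re-aeration libraries were far above both. In the other 5242 regions of the table the same means ran 68.7% ± 1.55 in dry seed, 28.9% ± 1.18 and 32.3% ± 0.244 at 24 h in air and nitrogen, 25.7% ± 0.465 and 32.4% ± 0.758 at 4 d in air and nitrogen, and 57.9% ± 0.684 after re-aeration. The 666 regions thus stood below the others where both were low, and within 3 points of them in dry seed and after re-aeration.

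**Figure D1:**
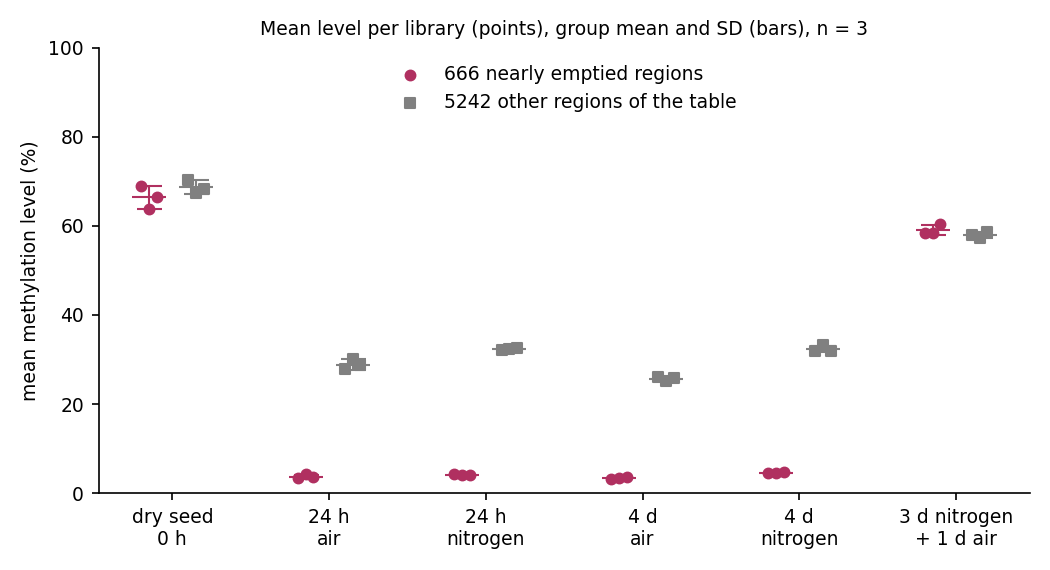
Mean methylation level in percent (vertical axis) over the 666 nearly emptied regions (circles) and the 5242 other regions of the table (squares) in each of the 18 libraries, by group; bars give the group mean and SD over 3 libraries. The circles sit between 63.8% and 69.0% in dry seed, between 58.4% and 60.5% after re-aeration, and between 3.18% and 4.65% in the other 12 libraries.

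Region by region, the same split held for nearly the whole set. The lowest re-aeration library was above the highest of the 12 libraries of the 24 h and other 4 d groups in 649 of the 666 regions. The 24 h libraries among the 12 were low by the rule, and the same count was not made for the other regions of the table. Among coleoptiles alone, re-aeration lay wholly above 4 d nitrogen in 616 of 627 of these regions with all 6 values. The share over all regions of the table was 72.4%. It lay wholly above 4 d air in 619 of 625, against 84.5% of all regions. Group levels after 4 d in air ranged from 0% to 29.9% with a median of 2.35%, and 634 regions remained under 10%. Of the other 5242 regions of the table, 1178 were under 10% there. After 4 d in nitrogen the levels of the 666 ranged from 0% to 21.8% with a median of 3.78%. In that group 594 of them were under 10%, and 585 of the other regions. Both 4 d groups were under 10% in 573 regions (86.0%). After re-aeration the levels ranged from 16.1% to 95.9% with a median of 59.1%, with 477 regions at 50% or more, 56 at 80% or more and 15 under 30%. The other regions of the table also had a median of 59.1% there, with 3513 of the 5242 at 50% or more. Together, 406 regions (61.0%) were under 10% in both 4 d groups and at 50% or more after re-aeration. These joint counts were not made for the other regions.

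**Figure D2:**
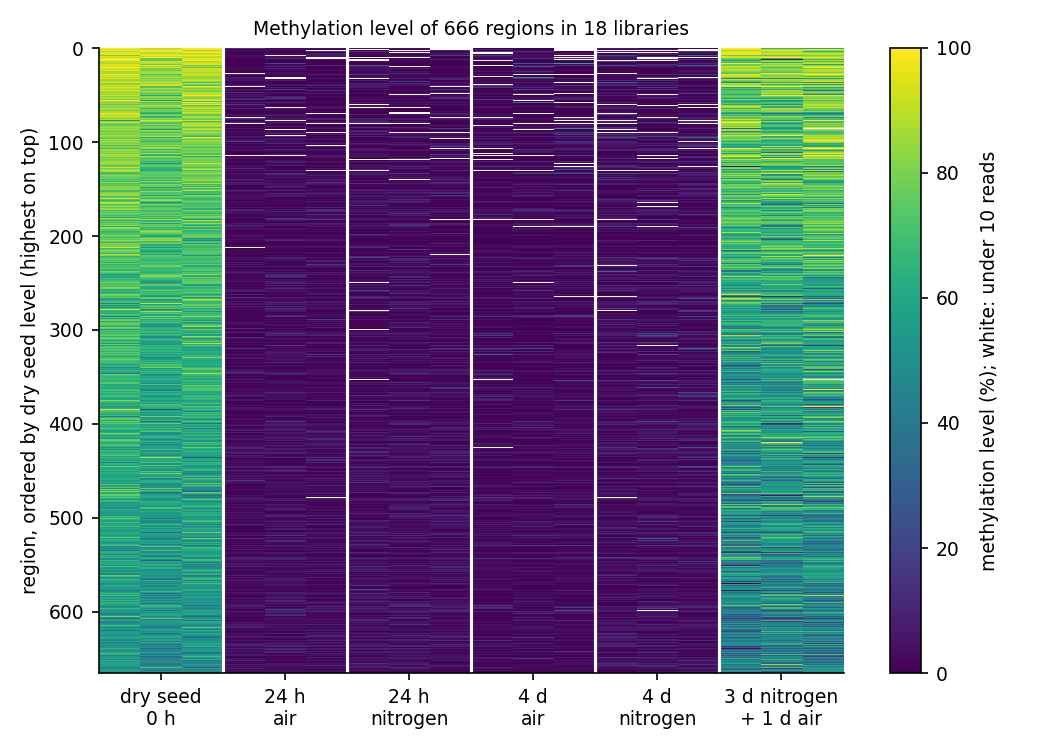
Methylation level in percent (colour, 0 to 100) of the 666 regions (rows, from the highest dry seed level at the top to the lowest at the bottom) in the 18 libraries (columns, 3 per group); white cells had fewer than 10 reads. The dry seed and re-aeration columns are bright from top to bottom, and the 12 columns between them are dark, with group medians between 2.35% and 3.78%.

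The regions were spread over the genome. They lay on all 12 numbered chromosomes, from 27 on chromosome 10 (8.77% of the regions there) to 75 on chromosome 11 (14.1%), with 2 more of 7 on a sequence that the table names S. Most stood alone: joining regions at most 1000 bp apart left 643 single regions and 10 groups with 23 regions. The largest group held 4 regions on chromosome 9 between 3382297 and 3383751. Within 1000 bp of any other region of the table lay 57 of them (8.56%).

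Their median length was 67 bp (interquartile range 40 to 91, range 3 to 334), against 57 bp in the other regions. The authors' table counts a median of 12 cytosine sites in each, against 6 in the others, and the median density was 20 and 14.8 sites per 100 bp. Length and the level after re-aeration had r = 0.05 across the 666 regions, which share their libraries. Positions are given as the authors' tables give them. Since no source used here names their genome build, genes and sequences at the regions were not analysed.

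The 5 largest falls from dry seed to 24 h, among the 597 regions with 10 or more reads in all 18 libraries, serve as examples of single loci. They were ranked by the levels that the rule used, so their dry seed and 24 h levels are extremes by choice. The region on chromosome 6 from 6665185 to 6665216, with 7 sites, was at 96.5%, 93.7% and 90.5% in dry seed. Its 24 h libraries lay at 0%, 2.56% and 9.98% in air and at 3.33%, 0% and 3.99% in nitrogen. Its 4 d libraries lay at 0%, 2.56% and 0% in air and at 0%, 5.25% and 0% in nitrogen. The re-aeration libraries, at 99.0%, 89.3% and 90.5%, overlapped dry seed and no other group.

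The low values of that region rest on few reads, 19 to 40 per library after 4 d in nitrogen, against 214 to 277 after re-aeration. A region on chromosome 2 from 34630150 to 34630188 went the same way, from 95.1%, 90.0% and 91.4% in dry seed to 5.54%, 4.22% and 4.47% after 4 d in air. It was at 6.34%, 10.7% and 3.91% after 4 d in nitrogen and at 93.8%, 91.0% and 87.7% after re-aeration. Both of these regions returned to within 2 points of their dry seed mean.

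In the other 3 regions with the largest falls the level after re-aeration stayed further below dry seed and varied more between libraries. On chromosome 4 from 11739307 to 11739410, dry seed was at 89.3%, 91.0% and 90.2% and re-aeration at 67.6%, 58.9% and 87.1%. That region had no methylated read in any 24 h library, out of 170 reads in air and 193 in nitrogen, which allows a level of up to 1.76% and 1.55% for counting error alone. On chromosome 7 from 4743243 to 4743268, dry seed was at 89.5%, 94.1% and 88.0% and re-aeration at 74.6%, 89.2% and 69.0%.

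On chromosome 11 from 18232890 to 18232940, dry seed was at 95.9%, 75.6% and 96.4% and re-aeration at 78.8%, 81.2% and 56.9%. Dry seed and re-aeration overlapped in this region and in the one on chromosome 7, and did not in the one on chromosome 4.

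**Figure D3:**
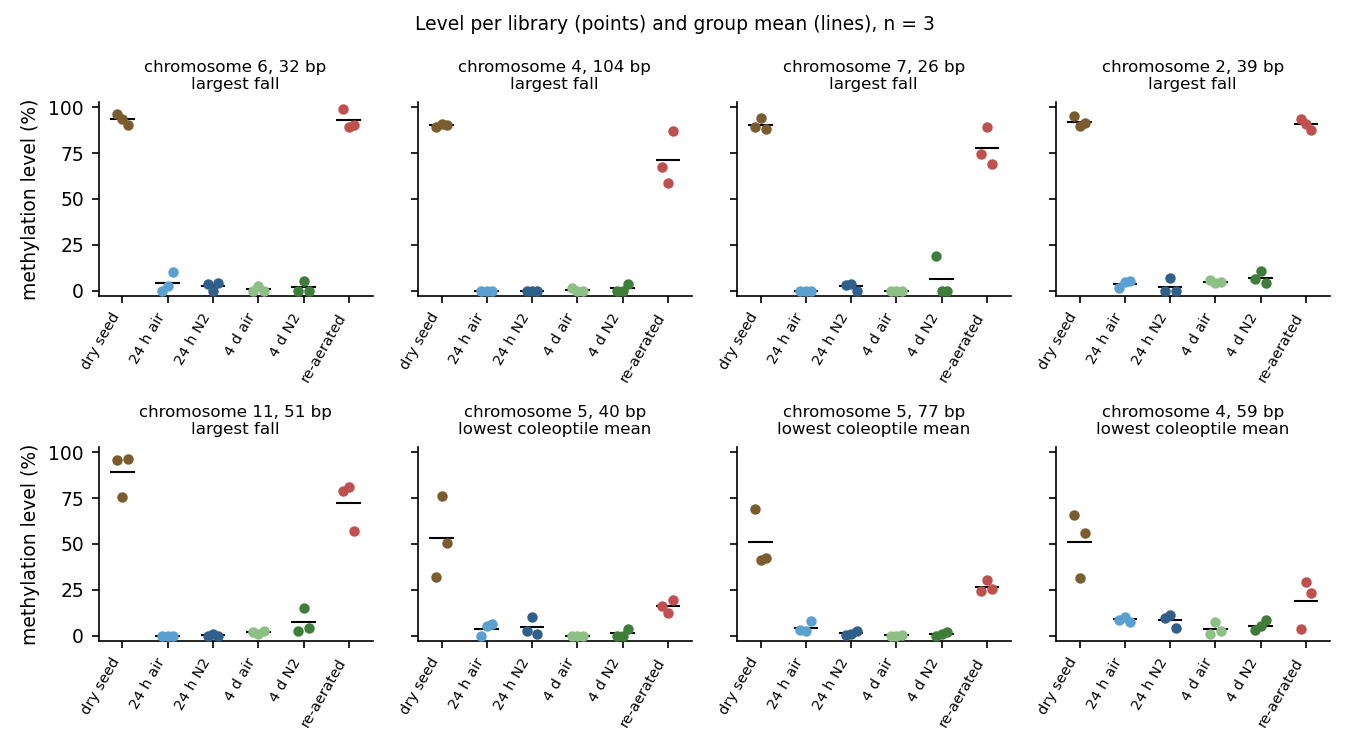
Methylation level in percent (vertical axis) in every library (points, with the group mean as a line, n = 3) for the 5 regions with the largest fall from dry seed to 24 h and the 3 regions with the lowest mean over the 3 coleoptile groups. In the first 5 the re-aeration points lie between 56.9% and 99.0%, and in the last 3 between 3.77% and 30.3%.

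The first coleoptile comparison asked whether 4 d without oxygen left the regions at another level than 4 d in air. Of the 651 regions that could be tested, 0 passed in either direction with the quasi-binomial model on read counts (adjusted p under 0.05 over the whole table and a difference of at least 10 points), and 0 with limma on the levels. Of all tested regions of the table, 1.92% were called higher in nitrogen and 0.0171% lower (1.93% in either direction). An unadjusted p under 0.05 was found in 19 of the 666 regions and in 989 of all regions. The difference of nitrogen minus air had a median of 0.88 points (interquartile range -0.41 to 2.74), against 5.01 points over the whole table. It was above 0 in 420 regions, below 0 in 205 and at 0 in 26. Levels this close to 0 leave little room for a fall of 10 points.

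The 3 nitrogen libraries all lay above the 3 air libraries in 62 of the 608 regions with all 6 values, and all below in 18. Of all regions with 6 values, 29.6% lay above and 1.34% below, against 10.2% above among the 666, and no test of that difference was made. A difference of 10 points or more was seen upwards in 10 regions and downwards in 4, and none of the 14 passed the test. The 2 extremes were singled out with their values in view. On chromosome 11 from 24403172 to 24403188, air-grown coleoptiles were at 0%, 29.9% and 59.9% on 10 reads each, and nitrogen-grown ones at 0%, 0% and 9.51% on 30, 29 and 21 reads. The difference of -26.8 points did not pass (adjusted p = 0.283, quasi-binomial model, Benjamini-Hochberg).

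At the other end, on chromosome 2 from 8677612 to 8677661, air was at 0%, 1.31% and 2.38% and nitrogen at 24.9%, 2.88% and 28.1%. There 2 of the 3 nitrogen libraries were high, 1 of them on 12 reads, and the difference of 17.4 points had an adjusted p of 0.611 in the same model. A further region, also chosen after its values were seen, on chromosome 12 from 2202538 to 2202608, was at 0%, 0.883% and 1.34% in air and at 8.87%, 12.7% and 2.21% in nitrogen. The groups did not overlap, and the difference of 7.19 points did not pass (adjusted p = 0.127). Without the third nitrogen library it did (adjusted p = 0.0268).

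The second comparison asked what the last day in air did to coleoptiles that had grown in nitrogen. Of 656 tested regions, 646 (98.5%) were higher after re-aeration than after 4 d in nitrogen and 0 were lower. Of all tested regions, 69.9% were called higher and 0.341% lower (70.2% in either direction). The difference had a median of 54.1 points (interquartile range 42.6 to 65.4, range 13.5 to 94.0), against 27.2 points over the table, where many regions kept some methylation after 4 d in nitrogen. The libraries of both groups did not overlap in 616 of 627 regions with all 6 values, all of them upwards, against 72.4% upwards and 1.01% downwards among all regions. The share called and the size of the difference both exceeded the background. The nitrogen mean was 4.58% in the 666 regions and 32.4% in the others, while the re-aeration means were 59.1% and 57.9%. The rule kept regions that were low at 24 h, and the part of this choice in the excess was not tested. Re-aerated coleoptiles spent 3 d in nitrogen and not 4 d, and no library was taken at 3 d, so these values compare end points.

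Set against 4 d in air, which shares the re-aeration libraries with the comparison just given, 652 of 658 tested regions (99.1%) were higher after re-aeration and 0 were lower. The table held 84.3% called higher and 0.017% called lower. The median difference was 54.9 points (interquartile range 44.3 to 66.2, range 12.9 to 93.5), against 33.8 points over the table. Libraries did not overlap in 619 of 625 regions, all upwards, against 84.5% upwards and 0.0698% downwards among all regions. Re-aerated coleoptiles were therefore apart from both groups that had stayed in 1 gas, while no tested region of the 666 passed between those groups.

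The largest differences from nitrogen were reached where re-aerated coleoptiles were almost fully methylated. On chromosome 6 from 6665185 to 6665216, whose values stand above, the difference was 91.2 points (adjusted p = 4.72e-06, quasi-binomial model with Benjamini-Hochberg adjustment, as for all p-values of levels here). On chromosome 11 from 24403172 to 24403188, re-aeration was at 99.8%, 89.9% and 90.3%, a difference of 90.2 points from nitrogen (adjusted p = 1.18e-05). From air, where single libraries of that region were high, it differed by 63.4 points (adjusted p = 0.00162).

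The most deeply covered of these regions had 38 sites over 198 bp on chromosome 11 from 25618902 to 25619099. Its dry seed libraries were at 89.3%, 82.7% and 91.9%, on 1289 to 1864 reads. The 12 libraries of the 24 h and other 4 d groups were all at 1.12% or less, on 121 to 412 reads each. Re-aeration stood at 91.1%, 83.3% and 89.3% on 982 to 1220 reads, 87.8 points above nitrogen (adjusted p = 1.25e-07) and 87.5 above air (adjusted p = 5.35e-08). At this depth the region was as methylated after re-aeration as in dry seed to within 1 SD (87.9% ± 4.09 and 87.9% ± 4.75, n = 3).

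On chromosome 7 from 5338954 to 5338998, re-aeration was at 91.8%, 90.1% and 86.3% and nitrogen at 0%, 0% and 2.04%, a difference of 88.7 points (adjusted p = 2.46e-07). On chromosome 5 from 6906909 to 6906973, a region with 20 sites, re-aeration was at 89.6%, 92.6% and 91.6%, above its dry seed libraries at 83.1%, 86.6% and 87.9%. It differed from nitrogen by 86.9 points (adjusted p = 2.80e-08) and from air by 90.1 points (adjusted p = 3.66e-08).

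Among the largest differences from air were 2 regions in which dry seed itself varied. On chromosome 7 from 7324142 to 7324187, dry seed was at 93.3%, 59.8% and 99.1% and re-aeration at 73.3%, 99.8% and 96.7%, 89.9 points above air (adjusted p = 0.00103). On chromosome 3 from 23395207 to 23395264, dry seed was at 87.2%, 87.8% and 58.4% and re-aeration at 96.9%, 81.4% and 88.9%, 87.8 points above air (adjusted p = 9.92e-06). In both, all 3 air libraries were at 3.84% or less.

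The 3 regions with the most sites had 174 or more reads in every library. The region with 71 sites, on chromosome 10 from 15709720 to 15709919, was at 77.0%, 62.95% and 72.4% in dry seed. Air at 4 d gave 4.24%, 3.70% and 5.34%, nitrogen 4.19%, 6.43% and 4.25%, and re-aeration 74.7%, 73.5% and 78.1%. With 476 or more reads in every library, air and nitrogen overlapped, and re-aeration was 70.5 points above nitrogen (adjusted p = 9.65e-08).

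The 46 sites on chromosome 3 from 9661607 to 9661768 were at 87.8%, 90.4% and 84.8% in dry seed and at 76.8%, 71.7% and 79.97% after re-aeration. These groups did not overlap. The 45 sites on chromosome 12 from 7502890 to 7503213 were at 65.1%, 68.1% and 72.3% in dry seed and at 69.7%, 70.6% and 62.9% after re-aeration, which overlapped.

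The 3 regions with the highest mean over the coleoptile groups were the one on chromosome 11 from 24403172 to 24403188, described above, and those on chromosomes 4 and 3 that follow. On chromosome 4 from 17175318 to 17175348, air was at 3.17%, 22.2% and 19.96%, nitrogen at 24.9%, 18.8% and 7.19%, and re-aeration at 84.1%, 94.5% and 77.8%. On chromosome 3 from 21961046 to 21961117, air was at 17.1%, 3.84% and 20.9%, nitrogen at 13.9%, 13.4% and 10.5%, and re-aeration at 94.7%, 84.7% and 89.3%. Air and nitrogen overlapped in these last 2 regions, and re-aeration was 68.5 and 77.0 points above nitrogen (adjusted p = 4.02e-05 and 0.000124).

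At the low end were regions whose re-aerated level stayed far below dry seed. On chromosome 5 from 28734877 to 28734916, dry seed was at 32.2%, 76.4% and 50.7%, air at 0% in all 3 libraries and nitrogen at 0%, 0% and 3.75%. Re-aeration gave 16.4%, 12.5% and 19.4%, the lowest group level of the 666 regions. No library overlapped, yet the 14.8 points above nitrogen did not pass (adjusted p = 0.0601), whereas the 16.1 points above air did (adjusted p = 0.0120).

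On chromosome 5 from 21741731 to 21741807, dry seed was at 69.2%, 41.4% and 42.2% and re-aeration at 24.2%, 30.3% and 25.6%, with nitrogen at 1.69% or less. The difference of 25.9 points from nitrogen passed (adjusted p = 0.000449). On chromosome 4 from 25766935 to 25766993, nitrogen was at 2.93%, 4.99% and 8.32% and re-aeration at 3.77%, 29.4% and 23.5%. Re-aeration overlapped nitrogen there in 1 library, and the 13.5 points passed narrowly (adjusted p = 0.0316) and did not pass with limma, with the spread of these groups alone, or without nitrogen replicate 1 or 2 or re-aeration replicate 2 or 3 (8.23 to 13.3 points with 1 of these left out).

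The 10 tested regions that did not pass against nitrogen had differences of 13.9 to 34.9 points, adjusted p of 0.0601 to 0.162 and a median of 37 reads. Another 10 could not be tested for lack of reads. For example, the region on chromosome 5 from 18241761 to 18241774 had 9, 9 and 0 reads after 4 d in nitrogen, and 77, 67 and 61 in re-aerated coleoptiles, at 88.1%, 98.3% and 85.1%. The region that reached the highest re-aerated level, located on chromosome 10 from 10621373 to 10621387, could not be tested against nitrogen either. It had 31, 12 and 19 reads after re-aeration, at 93.4%, 99.8% and 94.6%. These 2 were picked for mention after their values were seen.

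The level a region reached after re-aeration rose with its own dry seed level. Regions at 50 to 60% in dry seed (227) had a median of 47.5% after re-aeration, and those at 60 to 70% (207) had 57.2%. Those at 70 to 80% (139) had 70.9% and those at 80 to 100% (93) had 78.7%. Over the same 4 classes the median after 4 d in air was 2.42%, 2.35%, 2.21% and 1.69%, which did not rise with the dry seed level. Across the 666 regions, which share the libraries of each group, dry seed and re-aeration levels had r = 0.75 and rho = 0.75, while dry seed and 4 d nitrogen levels had r = 0.0042 (665 regions). The 2 groups at 4 d had r = 0.49 with each other. Most levels at 4 d were near 0, with 634 regions under 10% in air and 594 in nitrogen. The part of this narrow range in the flat medians and the low r was not tested. These correlations were not computed for the other regions of the table.

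**Figure D4:**
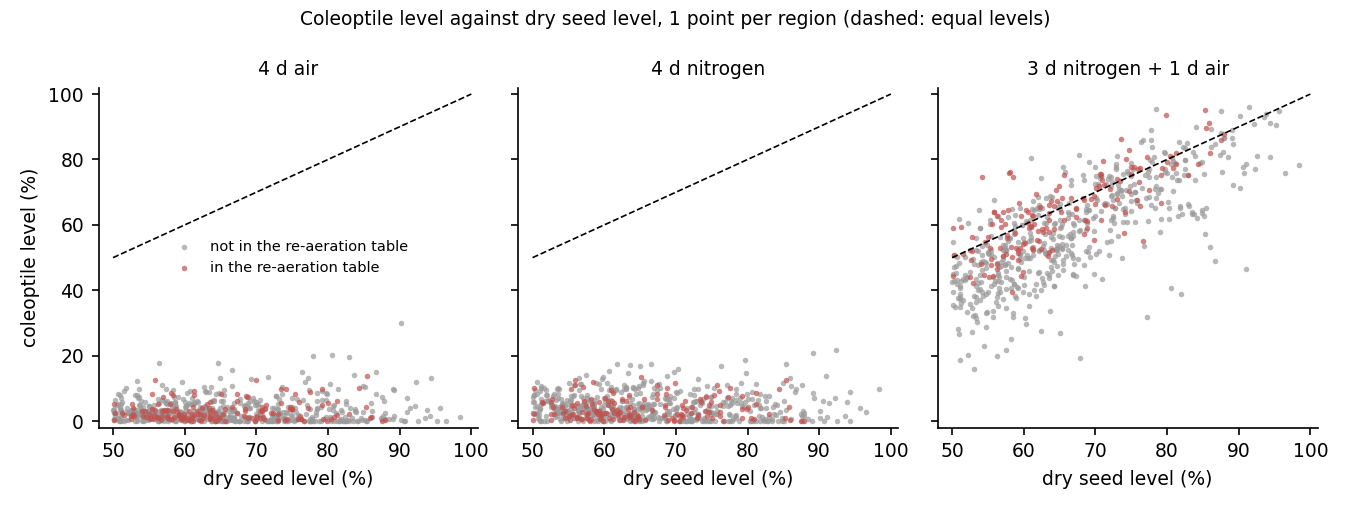
Coleoptile level (vertical axis, percent) against dry seed level (horizontal axis, percent) for each of the 666 regions (points) after 4 d in air, 4 d in nitrogen and re-aeration; the dashed line marks equal levels and red points are the 155 regions also listed in the re-aeration table. Points stay at or below 29.9% and 21.8% in the first 2 panels, and in the last they follow the line from below, with a median difference of -6.55 points.

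Since the rule set a lower limit on the dry seed level, the distance from it is a description. The level after re-aeration was a median of 89.9% of the dry seed level (interquartile range 79.2 to 99.2%, range 28.4 to 137.7%), against a median of 85.5% in the other regions of the table. It lay within 10 points of dry seed in 411 regions, 10 or more points below in 238 and 10 or more above in 17. It was at or above dry seed in 155. Dry seed libraries are embryos and re-aerated ones coleoptiles, and this ratio was not tested. Libraries of these 2 groups also agreed less among themselves: the median SD between the 3 libraries of a region was 8.39 points in dry seed and 9.68 after re-aeration, against 1.63 to 2.26 points in the other groups. A level near 50% has more room to vary than one near 0%, and the part of this in the wider spread was not tested. The mean chi-square between pairs of replicate libraries was 10.3 to 12.9 in these 2 groups. It was 1.73 to 2.52 in the other groups. Median reads per region were 158 to 255 in the libraries of dry seed and re-aeration and 92 to 122.5 in the others. The part of this depth in the chi-square was not tested.

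Read numbers moved with methylation. Dry seed libraries held 183333 to 207544 reads over the 666 regions, re-aeration libraries 134157 to 153930, and the other 12 libraries 71090 to 93058. Re-aeration over 4 d nitrogen, the total was 1.81 times as high. Methylated reads were 24.2 times as high (89158 ± 6099 against 3677 ± 175, n = 3), and unmethylated reads 0.727 times (55621 ± 4376 against 76504 ± 4033). Against 4 d air the same ratios were 1.79, 33.3 and 0.712, and dry seed over 24 h air gave 2.20, 37.8 and 0.746. Much of the higher total was shared by the other regions of the table, where it was 1.47 and 1.82 times as high in these 2 comparisons. None of these ratios is scaled to library depth.

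Re-aeration had fewer unmethylated reads than 4 d nitrogen in 555 of the 666 regions (83.3%) and in 80.4% of the other regions of the table. Without scaling to depth, it had more reads in all in 627 of the 666, a count that was not made for the other regions. Over the whole table, re-aeration libraries held 1281381 to 1436790 reads and 4 d nitrogen libraries 908058 to 1008683. The other regions of the table had 1.37 times as many reads after re-aeration as after 4 d nitrogen. Over the regions of the separate table of oxygen differences the ratio was 0.850, so the higher total was not shared by that table. The total depth of a library is not given by the tables.

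**Figure D5:**
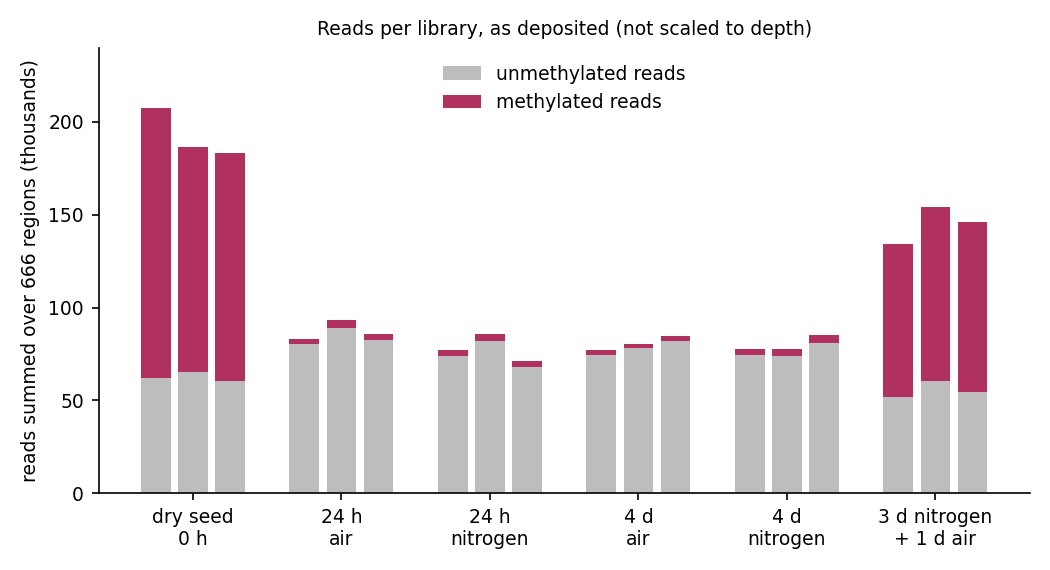
Reads summed over the 666 regions (vertical axis, in units of 1000) in each of the 18 libraries, split into methylated (red) and unmethylated (grey) reads, not scaled to depth. The grey part lies between 51980 and 88923 reads in every library, and the red part reaches 82177 or more in dry seed and re-aeration and 4135 at most elsewhere.

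With reads scaled within the table (edgeR, TMM factors between 0.95 and 1.02), 135 of the 666 regions (20.3%) had more reads after re-aeration than after 4 d nitrogen and 1 had fewer, at an adjusted p under 0.05. Of all regions, 9.6% had more and 6.62% fewer. Against 4 d air 112 (16.8%) had more and 4 fewer, with 10.3% and 7.06% in the table. An unadjusted p under 0.05 (edgeR, either direction) was no more frequent in the 666 regions than in the table. The shares were 32.0% and 32.5% against nitrogen, and 30.9% and 33.0% against air. The median log2 ratio of reads was 0.40 and 0.24 in these comparisons, against -0.01 and -0.01 for all regions. Between 4 d nitrogen and 4 d air edgeR called 0 of the 666 regions, and 0% of the table in either direction; an unadjusted p under 0.05 was found in 68 (10.2%) and in 437 of all regions (7.40%). DESeq2 called 3, and 0.237% of the table in either direction. Leaving out 1 library gave 85 to 98 regions with changed reads against nitrogen, lowest without the second nitrogen library, and 70 to 92 against air, lowest without the third re-aeration library, in place of 136 and 116. Calls over the whole table with a library left out are not given here, so this fall cannot be called particular to the 666.

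Scaling by the reads over the oxygen table, chosen after seeing the data, raised the 135 to 389 with 0 fewer, and the 112 to 305 with 0 fewer. The oxygen table lists regions that differ in methylation between 4 d nitrogen and 4 d air. Its reads in nitrogen were 1.11 times those in air, against 0.993 times over the 666 regions. Whether its reads follow library depth alone was not tested. Calls over all regions rose as well, to 37.5% more and 0.0508% fewer against nitrogen, and to 32.6% and 0.0846% against air. The scaling moved the median log2 ratio of all regions to 0.61 and 0.56, and that of the 666 regions to 1.02 and 0.81. In the region on chromosome 6 from 6665185 to 6665216 the log2 ratio to nitrogen was 2.63 (adjusted p = 0.000405, edgeR). In the most deeply covered region on chromosome 11, from 25618902 to 25619099, it was 1.73 (adjusted p = 0.000547, edgeR).

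A level could also rise where reads did not. The 1 region with fewer reads in both comparisons, also named after its values were seen, on chromosome 8 from 2687014 to 2687094, had 193, 278 and 288 reads against 386, 290 and 353 in nitrogen. It rose from 3.62%, 4.47% and 5.09% in nitrogen to 38.8%, 64.3% and 41.6% after re-aeration (43.8 points, adjusted p = 1.34e-05). The part of the read numbers in the levels, or of the levels in the read numbers, was not tested.

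The authors' other 2 tables list regions that differ between the coleoptile groups. No region of the 666 overlapped the 2131 regions listed for 4 d nitrogen against 4 d air by 1 bp or more, while 19 of the other 5242 regions (0.362%) did. In contrast, 155 of the 666 (23.3%) overlapped a region listed for 4 d nitrogen against re-aeration, which is 17.2% of the 902 regions of that table. Of the other regions 577 (11.01%) did.

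By their medians, the 155 were longer and better covered than the other 511 regions. Their median length was 92 bp against 57 bp, their median number of sites 17 against 11, and their median reads per re-aeration library 284 against 146. Median levels were 2.90% against 3.95% after 4 d in nitrogen and 63.0% against 56.4% after re-aeration. All 155 were called higher after re-aeration than in nitrogen. That is no independent result, since they overlap regions listed for this difference in the same libraries. Of the 511 regions outside the authors' list, 491 were called higher, against 69.9% of all tested regions of the table. The regions outside the list thus mostly changed in the same direction. Over the regions as drawn in the re-aeration table, the medians were 2.06% in air, 3.15% in nitrogen and 65.7% after re-aeration.

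The largest difference among the 155, and among all 666, was on chromosome 9 from 13314041 to 13314074, with 5 sites. Nitrogen was at 0%, 0% and 3.22% on 18 to 31 reads and re-aeration at 96.9%, 99.8% and 88.6% on 70 to 107 reads, 94.0 points apart (adjusted p = 0.000113). On chromosome 1 from 20069883 to 20069927, re-aeration was at 91.8%, 99.8% and 89.0%, above every dry seed library at 87.1%, 79.4% and 73.2%, and 89.9 points above nitrogen (adjusted p = 1.10e-06). On chromosome 7 from 24599624 to 24599691, dry seed was at 90.5%, 82.6% and 89.4%, the 3 air libraries at 0%, and re-aeration at 90.7%, 79.7% and 87.5%. That is 85.8 points above nitrogen (adjusted p = 1.78e-07), with dry seed and re-aeration overlapping.

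The limits of the rule cut through a continuous spread of levels. Just inside the dry seed limit were regions at 50.03% and 50.1% on chromosome 5, and just outside were regions at 49.98% and 49.9% on chromosomes 2 and 6. After re-aeration the inner pair was at 42.6% and 44.9% and the outer pair at 13.9% and 29.1%. At the 24 h air limit the inner pair was at 9.98% and 9.94% and the outer pair at 10.04% and 10.07%. At the 24 h nitrogen limit the inner pair was at 9.98% and 9.97% and the outer pair at 10.06% and 10.07%, and the outer regions at both 24 h limits reached 44.2% to 59.9% after re-aeration.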

How the data were processed

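The 18 libraries were grouped by their titles, and the 666 regions and the measures described were chosen with earlier results of these data known. Per the file headers, the deposited tables give for each region and library a methylated read value, a total read count and a percent, and for the dry seed table the authors' number of cytosine sites per region, also a count. The deposited methylated values were treated as estimated counts and rounded to whole numbers, since dividing by a library factor between 0.9977 and 0.9983 makes them whole to within 0.05. The deposited percent is the methylated value over the total count. The headers do not say whether a read counts once per region or once per cytosine; if per cytosine, fewer molecules than reads stand behind a level. No source used here gives the aligner, region caller, filters or genome build. Total reads over the 5908 regions were 865237 to 2150760 per library, and 0 columns of library values were left unused.

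A level is the mean percent over libraries with 10 or more reads. Levels were compared per region with a quasi-binomial model on methylated and total counts over all 18 libraries (F test, dispersion at 1 or above, Benjamini-Hochberg adjustment over the table, 2 libraries or more per group), and called at adjusted p under 0.05 and 10 points. Total counts were compared with edgeR's quasi-likelihood test (4.0.16), with DESeq2 (1.42.0) and limma (3.58.1, on levels) as alternatives, in R 4.3.3 and Python 3.11.15. Overlaps of 1 bp or more were counted. Both tests were tested on simulated data. Replicate libraries never held identical values. Floors for levels of 0% use 3 counts and, like SDs, do not cover dependence between reads. Regions were named by rule: the 5 largest falls to 24 h; the 5 largest called differences each way per coleoptile comparison; the 3 highest and the 3 lowest coleoptile means; up to 5 regions overlapping each other table; the 3 with most sites (all but the overlapping ones among regions with 10 or more reads in all 18 libraries); and 2 on each side of each limit. Others named were chosen after their values were seen, as said beside them.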

Additional observations from a re-analysis of the deposited data

How the results depend on the processing

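Minimum reads of 5 and 20, limma on the levels, the spread of the compared groups alone, a difference of 20 points, a replicate block and each left-out library changed no direction of the called counts. Regions higher after re-aeration than in nitrogen numbered 598 to 656 under these settings (621 to 643 when leaving out single libraries; replicate block 648), and against air 618 to 661 (619 to 649; block 653). Nitrogen against air gave 0 throughout, 0 with the block, and 0 to 1 with a library left out. For read numbers, the calls in either direction of re-aeration against nitrogen went from 136 to 389 when scaled by the oxygen table (added after seeing the data), and to 85 to 98 with a library left out (85 without the second nitrogen library, 89 and 90 without the first and second re-aeration libraries). Against air they went from 116 to 305 and to 70 to 92 (77 without the first air library, 70 without the third re-aeration library). With fewer samples the test has fewer degrees of freedom, and the part of this in the lower counts was not tested. For nitrogen against air DESeq2 gave 3 and left-out libraries 0 to 1, where 1 is the value without the first air library. The replicate block gave 132, 109 and 0 for reads. Same-numbered libraries did not deviate together over the regions (correlations -0.0151 to 0.0286). Such correlations cannot show whether same-numbered libraries came from the same batch of plants, which no label states.

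The mean level at 24 h in nitrogen was 4.26% with 5 reads and 4.49% from summed reads, and after re-aeration 61.5% from summed reads; the cause was not tested. The rule gave 643 to 682 regions with a library left out (added after seeing the data) and 653 to 686 otherwise. Of 631 values of named regions under alternatives, 621 stayed on their side of the threshold, 10 no longer passed and 0 reversed. Depth limits regions with about 10 to 40 reads per library at 4 d.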
